A study of Mus musculus with 2 samples.

Results

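The genes described here are the cathepsins, the Lamp glycoproteins and the vacuolar proton pump (V-ATPase) of the lysosome, in RNA-seq of primary mouse hepatocytes from oil-injected and CCl4-injected mice. A gene was taken when its symbol in the mRNA table was Cts with 1 or 2 further characters, Lamp1 to Lamp5, or began with Atp6v0, Atp6v1, Atp6ap1 or Atp6ap2, and the transcript with the highest mean level stood for it. This gave 51 of the 20317 genes with a symbol in the table, with 59 of the 27457 mRNA transcripts. They were 22 cathepsins, 4 Lamp genes, 22 V-ATPase subunits, 2 accessory proteins of the pump and Atp6v1fnb, a neighbor of Atp6v1f that matches the rule by its name and is not known as a subunit.

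CCl4 is a hepatotoxin whose repeated injection scars the liver, and the study used it as a murine model of liver fibrosis. Both groups were male wild-type C57BL/6J mice, 5 weeks old according to the methods. The oil group received intraperitoneal oil, and the CCl4 group received a 20% CCl4 solution in mineral oil at 2.5 ml of CCl4 per kg body weight, over 8 weeks by the labels and over 4 weeks by the methods. The hepatocytes came from livers perfused with pronase and collagenase and were separated on a density gradient. There was 1 library per group, and how many mice went into it is not given in the sources used here. Every difference below is therefore a difference between 2 libraries, with no replicate check and no p-value, and a gene is said to have risen or fallen only where its log2 fold change, with 0.1 RPKM added to both values, was at least 1 in size. RPKM is the read count divided by transcript length and library size, so levels of different genes can be set side by side on it.

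The lysosome breaks down proteins, lipids, sugars and nucleic acids that reach it by endocytosis, phagocytosis and autophagy. Its cathepsins are proteases, most of them cysteine proteases of the papain family, with aspartic and serine proteases beside them, and they work in an acid lumen. The acid is supplied by the V-ATPase, in which the cytosolic V1 sector hydrolyses ATP and the membrane-bound V0 sector carries protons inward. Lamp1 and Lamp2 are heavily glycosylated proteins that line the limiting membrane. Hepatocytes, Kupffer cells and other phagocytes of the liver all hold lysosomes, and phagocytes are known for high cathepsin levels. In bulk RNA, more cells of a type and more RNA per cell cannot be told apart.

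Many lysosomal genes carry the bases TCACGTGA close to their start. These letters are the center of the CLEAR element, which TFEB and its relatives bind, and they contain TCACGTG and the E-box CACGTG. TCACGTGA and CACGTG read the same on both strands, and TCACGTG was searched on both. In the RefSeq promoters of GRCm38.p6, which span 250 bases before to 50 after each start, 41 of the 51 genes had an entry, with 46 promoters among them. TCACGTGA lay in 5 of these 46 promoters (10.9%) and in 0.974% of all 32851 promoters. TCACGTG lay in 7 of 46 (15.2%) against 3.77%, and CACGTG in 9 of 46 (19.6%) against 7.15%. The windows below are shown because they hold the TCACGTGA or TCACGTG matches of the genes whose levels are described next. They are printed on the strand of the gene, with the match in capitals, and the number is the distance of its first base from the start that the promoter entry uses, whose own base is 1.
Ctsd, -99: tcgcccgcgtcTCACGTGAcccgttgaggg
Ctsa, -13: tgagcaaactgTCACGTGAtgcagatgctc
Ctsa, 5: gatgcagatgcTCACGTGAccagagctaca
Atp6v1a, -132: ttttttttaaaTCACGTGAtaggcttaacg
Atp6v0d1, -4: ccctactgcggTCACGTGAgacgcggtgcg
Atp6v0e, 3: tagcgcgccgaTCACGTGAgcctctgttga
Atp6v0b, -37: gtgcgcgggggTCACGTGgggtcggcgca
Atp6v0b, -19: gggtcggcgcaTCACGTGcgccggtcagg
Lamp1, -62: agggcaagataTCACGTGgtccagcgccc
Lamp1, -16: acgtgaccacaTCACGTGcggaacggagc

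The Ctsd window lies at chr7:142387908-142387937 on the minus strand, upstream of the gene. The Ctsa windows lie at chr2:164833749-164833778 and chr2:164833766-164833795 on the plus strand, 1 match on each side of the start at 164833773. This is the second of the promoter entries of Ctsa and lies 901 bases inside the interval given for the gene below, which covers all its RefSeq transcripts. The start used for Atp6v1a, at 44139259, likewise lies 443 bases inside the interval of that gene. The Atp6v1a window is at chr16:44139373-44139402 (minus), that of Atp6v0d1 at chr8:105566050-105566079 (minus) and that of Atp6v0e at chr17:26676387-26676416 (plus), where the match falls in the first bases of exon sequence. Those of Atp6v0b are at chr4:117887349-117887377 and chr4:117887331-117887359 (minus), and those of Lamp1 at chr8:13159088-13159116 and chr8:13159134-13159162 (plus). Lamp1 held 4 matches of TCACGTG on either strand, at -62, -45, -28 and -16, more than any other gene of the group. Ctsd held a second one at -245, on the opposite strand. Ctsf and Ctsl held CACGTG without either of the longer matches. A match describes the letters in this window and is neither a bound site nor a cause.

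**Figure D1:**
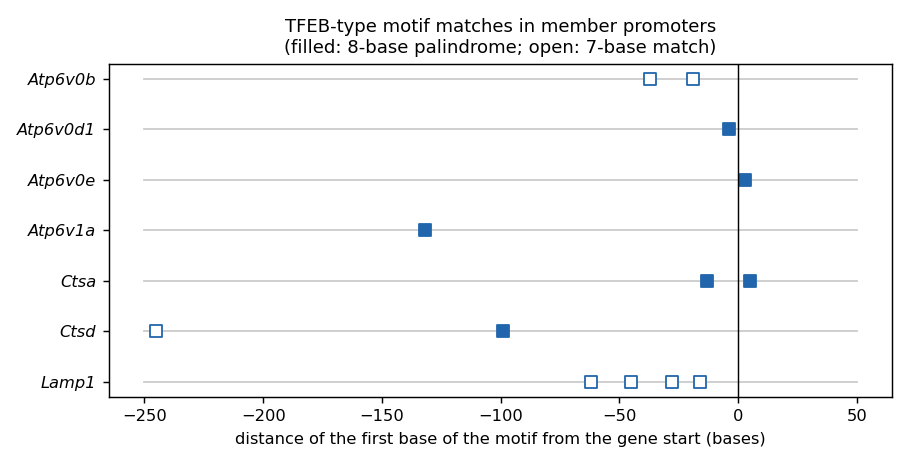
Positions of TCACGTGA (filled) and of TCACGTG without the last base (open, either strand) in the promoters of 7 members, with the distance of the first base of the match from the gene start in bases on the x axis and 1 gene per row. The 13 matches run from -245 in Ctsd to 5 in Ctsa, and those of Lamp1 fall between -62 and -16.

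Across the 51 genes, 29 were listed above 0 in both libraries, 3 in the CCl4 library alone, 1 in the oil library alone and 18 in neither. Of all 20317 genes, 5.72% were listed above 0 in the CCl4 library alone and 0.792% in the oil library alone. Of the 29, 6 rose (20.7%) and 0 fell. The 6 were Ctsd, Ctss, Ctsb, Ctsa, Ctsc and Atp6v1b2, that is, 5 proteases and 1 pump subunit. The background was large, since 14.3% of the 10689 genes with a value in both libraries rose and 5.48% fell. The median log2 fold change was 0.63 over the 29 members (range -0.34 to 2.55) and 0.30 over all genes. The median gene thus had more RPKM with CCl4, by 0.30 in log2 units, and 67.6% of all genes lay above 0. The share of members that rose, with 14.3% as its background, rests on few genes, whereas 21 of the 29 lay above the median gene. When the CCl4 values were scaled down so that the median gene did not change, 4 members kept a log2 fold change of at least 1 (Ctsd, Ctss, Ctsb and Atp6v1b2), against 8.01% of all genes, and 8 lay below 0 in place of 3. When scaled instead to the RPKM sum without the 10 most abundant transcripts, 9 did, with Atp6v0c, Atp6v1a and Ctsz joining the 6, against 19.3% of all genes.

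The depth behind these values was high. The RPKM steps of short genes gave about 57992541 reads for the oil library and 64655508 for the CCl4 library, and each of the 29 members rested on at least 109 reads in either library. Exact (Clopper-Pearson) 95% counting intervals of the log2 ratio excluded 0 for 27 of the 29, the exceptions being Ctsw and Lamp2, and excluded the shift of the median gene for 23. These intervals cover counting error only and say nothing of the spread between mice, and since the reads are lower bounds the true counting intervals may be narrower.

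Among the classes of members, the cathepsins had the largest ratio of summed levels. Their summed level was 960.2 RPKM with oil and 2974 RPKM with CCl4, a log2 ratio of 1.63, and their share of the summed mRNA RPKM was 0.230% and 0.825%. Without Ctsd the sum was 744.9 and 1716 RPKM, a log2 ratio of 1.20. By contrast, the summed level of the 22 V-ATPase subunits was 387.6 and 590.4 RPKM (log2 ratio 0.61), and that of the Lamp genes 231.8 and 299.5 RPKM (0.37). All members together made up 0.387% of the summed mRNA RPKM of the oil library and 1.09% of that of the CCl4 library.

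**Figure D2:**
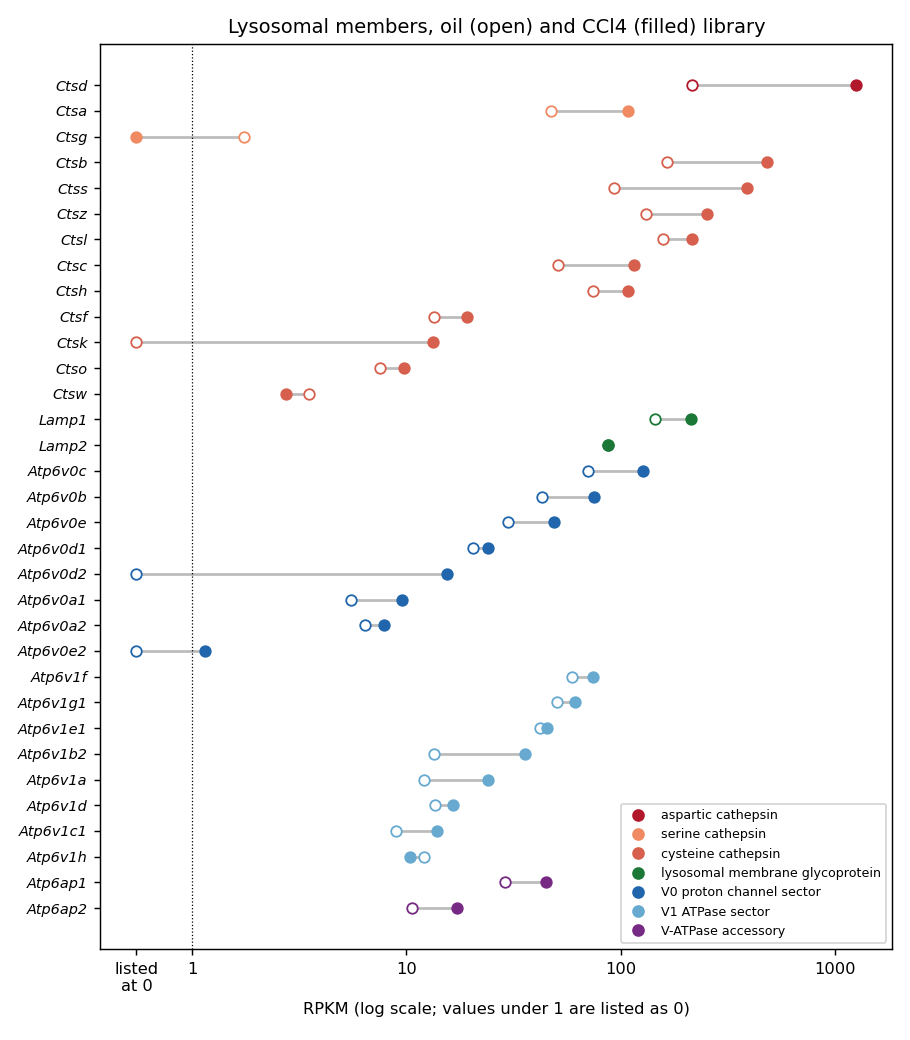
RPKM on a log scale of the 33 members listed above 0 in at least 1 library, 1 gene per row and colored by role, with the oil library as an open and the CCl4 library as a filled point, and 0 drawn apart at the left. Ctsd runs from 215.3 to 1258 RPKM, Ctsk and Atp6v0d2 have a value in the CCl4 library only, and the points of Lamp2 coincide.

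Ctsd, the aspartic protease cathepsin D (NM_009983, chr7:142375910-142387827), was the most abundant cathepsin in both libraries. It was at 215.3 RPKM with oil and 1258 RPKM with CCl4. This is 5.84-fold, a log2 fold change of 2.55 with a counting interval of 2.50 to 2.60, and lies at the percentile 99.2 of all genes with a value in both libraries. Among the 444 genes with a mean of at least 100 RPKM, Ctsd had the 6th largest log2 fold change and the 2nd largest gain in RPKM, and its level rank among all genes went from 240 to 13. Ctse, the other aspartic cathepsin, which is known from the stomach and from immune cells, was listed at 0 in both libraries.

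The cysteine cathepsins were 10 genes outside the placental group. Of the 9 with a value in both libraries 3 rose, against 14.3% of all genes. Ctss, cathepsin S of antigen-presenting cells and macrophages (NM_021281, chr3:95526786-95556405), was at 93.5 RPKM with oil and 389.5 RPKM with CCl4. Its log2 fold change was 2.06 (counting interval 2.001 to 2.12), and its second transcript gave 93.3 and 388.6 RPKM. Ctsb, cathepsin B (NM_007798, chr14:63122462-63145923), a broadly expressed protease with endopeptidase and carboxydipeptidase activity, was at 164.3 and 481.0 RPKM. Its log2 fold change was 1.55 (1.49 to 1.61), that is, 2.93-fold. Ctsc, cathepsin C or dipeptidyl peptidase I, which activates the serine proteases of leukocyte granules (NM_009982, chr7:88278024-88315861), was at 51.0 and 115.7 RPKM with a log2 fold change of 1.18 (1.13 to 1.24). Scaled to the median gene, that of Ctsc was 0.88 and no longer past 1, while those of Ctss and Ctsb were 1.76 and 1.25. At that scaling 8.01% of all genes rose.

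The remaining cysteine cathepsins did not pass the fold. Ctsz, a carboxypeptidase, came nearest with 130.6 and 252.0 RPKM and a log2 fold change of 0.95. Ctsl, cathepsin L, a major endopeptidase of most lysosomes, was at 157.8 and 216.0 RPKM, a log2 fold change of 0.45. Thus Ctsl and Ctsb, close to each other in the oil library, were 216.0 and 481.0 RPKM in the CCl4 library. Ctsh, an aminopeptidase, was at 74.4 and 108.5 RPKM (log2 fold change 0.54), Ctsf at 13.5 and 19.2 RPKM (0.51) and Ctso at 7.51 and 9.73 RPKM (0.37). Ctsw, a cathepsin of cytotoxic lymphocytes, was the lowest of all members by log2 fold change, at 3.50 and 2.74 RPKM (-0.34), and its counting interval of -0.74 to 0.03 held 0.

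Ctsk, cathepsin K, the collagenase of osteoclasts, was listed at 0 in the oil library and at 13.3 RPKM in the CCl4 library, on at least 315 reads. Neither RPKM column lists a value between 0 and 1, and no fold was computed against a listed 0. Ctsk (chr3:95499210-95509387) ends 17398 bases before the start of Ctss on chromosome 3, and both were higher in the CCl4 library. The 8 placental cathepsins (Cts3, Cts6, Cts7, Cts8, Ctsj, Ctsm, Ctsq and Ctsr), a rodent family known from the placenta and clustered within 569992 bases at chr13:61000179-61570170, were all listed at 0 in both libraries. They are similar copies, among which reads can be split.

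The serine cathepsins went in different directions. Ctsa, cathepsin A or protective protein (NM_008906, chr2:164832872-164841032), a carboxypeptidase that shields beta-galactosidase and neuraminidase in the lysosome, was at 47.2 and 107.9 RPKM, a log2 fold change of 1.19 (counting interval 1.13 to 1.25) and of 0.89 scaled to the median gene. Its second transcript was at 42.5 and 96.0 RPKM. Ctsg, cathepsin G (chr14:56099885-56102574), stored in neutrophil granules, was at 1.74 RPKM in the oil library, on at least 38 reads, and listed at 0 in the CCl4 library. Other granule genes lay on the same side, as Elane was at 2.74 and 1.04 RPKM and Mpo at 3.11 RPKM and 0. Of the list of leukocyte markers other than macrophages, 11 of 12 genes were in the table, and their summed level was 294.7 RPKM with oil and 170.5 RPKM with CCl4. S100a9 (163.1 and 91.5 RPKM, -0.83) and S100a8 (114.4 and 65.2 RPKM, -0.81), genes of neutrophils and monocytes, carried most of that sum. Gzma (3.79 and 1.96 RPKM, -0.92) and Nkg7 (5.09 and 3.18 RPKM, -0.66) were also lower with CCl4. Cd3d was at 1.06 RPKM with oil and listed at 0 with CCl4, and Cd3e and Ncr1 were listed at 0 in both libraries. The B-cell genes lay on the other side, with Cd79a at 1.403 and 5.62 RPKM (1.93) and Ms4a1 listed at 0 with oil and at 1.95 RPKM with CCl4. The part of these cells in the value of Ctsg was not tested.

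These unequal differences changed the make-up of the cathepsin transcripts. Ctsd was 22.4% of the summed cathepsin RPKM with oil and 42.3% with CCl4. Ctss went from 9.73% to 13.1% and from rank 5 to rank 3, whereas Ctsb was 17.1% and 16.2% and held rank 2. Ctsl went from 16.4% to 7.26% and from rank 3 to rank 5, Ctsz from 13.6% to 8.47% and Ctsh from 7.74% to 3.65%. A ratio within a library is free of the scaling between libraries.

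**Figure D3:**
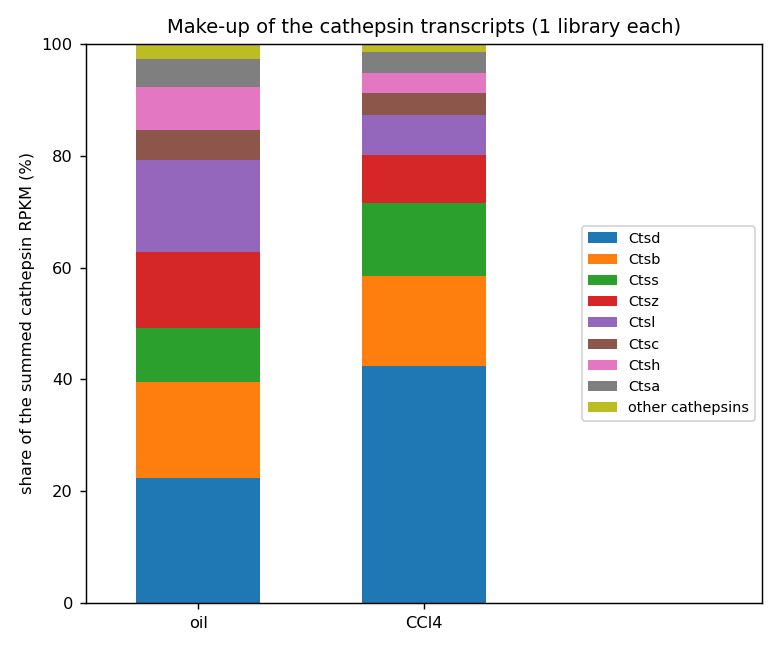
Share of each cathepsin in the summed cathepsin RPKM of the oil and the CCl4 library, in percent, as stacked bars from 0 to 100. Ctsd fills 22.4% of the oil bar and 42.3% of the CCl4 bar, and Ctsl 16.4% and 7.26%.

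Lamp1 and Lamp2, often used as markers of the lysosomal membrane, did not pass the fold. Lamp1 (chr8:13159161-13175338) was at 144.4 RPKM with oil and 212.3 RPKM with CCl4, a log2 fold change of 0.56 (counting interval 0.50 to 0.61). Lamp2 (chrX:38399647-38456460), also needed for chaperone-mediated autophagy and for fusion with autophagosomes, was at 87.4 and 87.2 RPKM (-0.0042), and its second transcript at 60.3 and 64.6 RPKM (0.10). Scaled to the median gene, Lamp1 was at 0.25 and Lamp2 at -0.31, and with the sum without the 10 most abundant transcripts Lamp2 turned to 0.16. Lamp3 and Lamp5, known from dendritic cells and from neurons, were listed at 0 in both libraries. With 1 transcript per gene, Lamp1 was 62.3% of the summed Lamp RPKM with oil and 70.9% with CCl4. The second transcript of Lamp2 is not in this sum, and with it the share of Lamp1 would be lower in both libraries.

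**Figure D4:**
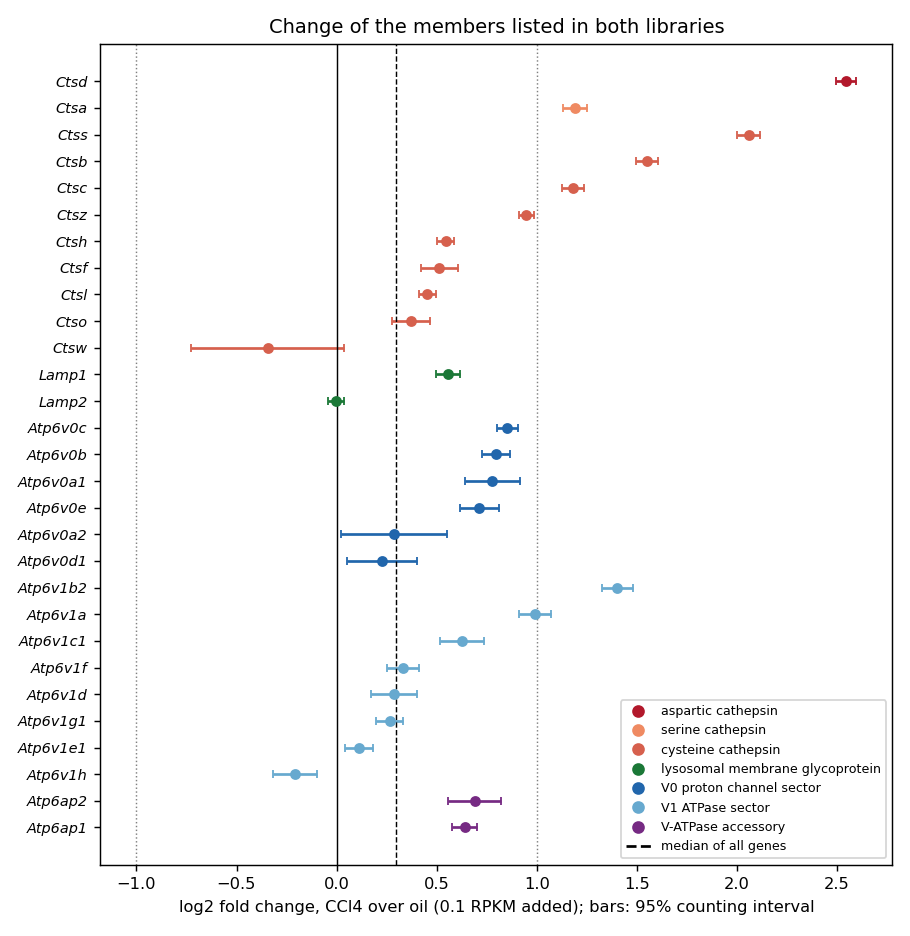
Log2 fold change (CCl4 over oil, 0.1 RPKM added) of the 29 members listed in both libraries, colored by role, with 95% counting intervals as bars, the median of all genes (0.30) as a dashed line and the fold of 1 in either direction dotted. Ctsd, Ctss, Ctsb, Atp6v1b2, Ctsa and Ctsc lie at 1 or above, and Atp6v1h, Ctsw and Lamp2 lie below 0.

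In the V0 sector, 6 of 9 genes had a value in both libraries and 0 passed the fold, with a median log2 fold change of 0.75. Of all genes, 14.3% rose and 5.48% fell. Atp6v0c, the proteolipid that forms most of the rotating ring, was the most abundant subunit, at 70.5 and 127.4 RPKM (log2 fold change 0.85). Atp6v0b, another ring proteolipid, was at 43.1 and 74.9 RPKM (0.80), and Atp6v0e, a small membrane subunit, at 29.7 and 48.8 RPKM (0.71). Atp6v0a1, 1 of the large subunits that form the proton half-channels, was at 5.53 and 9.56 RPKM (0.78), and its 4 transcripts were nearly alike, at 5.49 to 5.53 RPKM in the oil library. Its paralog Atp6v0a2 was at 6.42 and 7.84 RPKM (0.29), so that Atp6v0a1 was 46.3% of the summed a-subunit RPKM with oil and 54.9% with CCl4. Atp6v0a4, the isoform of kidney intercalated cells, was listed at 0 in both.

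The d subunit, which links the ring to the central stalk, was where V0 isoforms differed most. Atp6v0d1, the ubiquitous form (chr8:105524461-105566064), was at 20.4 RPKM with oil and 23.9 RPKM with CCl4, a log2 fold change of 0.23 that turned to -0.075 when scaled to the median gene. Atp6v0d2, the form known from osteoclasts, macrophages and kidney (chr4:19876838-19922566), was listed at 0 in the oil library and at 15.5 RPKM in the CCl4 library, on at least 416 reads. It made up 39.3% of the d-subunit RPKM in the CCl4 library, and the summed d-subunit level was 20.4 and 39.4 RPKM. Atp6v0e2, known mainly from brain, was listed at 0 in the oil library and at 1.16 RPKM in the CCl4 library, on at least 26 reads, just above the lowest values listed.

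Of the 13 genes of the V1 sector, 8 had a value in both libraries, 1 rose and 7 lay above 0, with a median of 0.31 that is close to that of all genes. Of all genes, 14.3% rose and 67.6% lay above 0. Atp6v1b2, the B subunit of the catalytic hexamer (NM_007509, chr8:69088736-69113718), was at 13.5 RPKM with oil and 35.8 RPKM with CCl4, a log2 fold change of 1.402 (counting interval 1.33 to 1.49) and of 1.10 scaled to the median gene. Atp6v1a, the A subunit that binds and hydrolyses ATP beside it (chr16:44085402-44139702), was at 12.1 and 24.1 RPKM, just short of the fold at 0.99. Atp6v1c1, the subunit that joins the sectors, was at 8.98 and 13.9 RPKM (0.63). The A and B subunits occur in equal number in the complex, and their levels were 12.1 and 13.5 RPKM with oil and 24.1 and 35.8 RPKM with CCl4.

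The stalk subunits of V1 lay lower. Atp6v1f was at 59.1 and 74.3 RPKM (log2 fold change 0.33), Atp6v1g1 at 50.7 and 60.9 RPKM (0.26), Atp6v1d at 13.5 and 16.5 RPKM (0.29) and Atp6v1e1 at 42.0 and 45.4 RPKM (0.11). Scaled to the median gene, Atp6v1f stayed above 0 at 0.028 and the other 3 turned below it. Atp6v1h, the subunit that regulates ATP hydrolysis, was at 12.1 and 10.4 RPKM (-0.21), the member of the pump below 0 with a counting interval (-0.32 to -0.10) that excluded it. The tissue-restricted paralogs Atp6v1b1, Atp6v1c2, Atp6v1e2, Atp6v1g2 and Atp6v1g3 were listed at 0 in both libraries, as was Atp6v1fnb. Of the 4 renal intercalated cell markers, Foxi1, Slc26a4 and Slc4a9 were listed at 0 in both, and Slc4a1, which red blood cells also express, was at 3.17 RPKM with oil and listed at 0 with CCl4.

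The accessory proteins of the pump were alike. Atp6ap1, which guides assembly of V0, was at 28.8 and 44.9 RPKM (log2 fold change 0.64), and Atp6ap2, the (pro)renin receptor, at 10.7 and 17.3 RPKM (0.69). Assembly and regulatory factors of the V-ATPase outside the group had 10 of 11 genes with a value in both libraries. Of these 0 passed the fold, while 14.3% of all genes rose and 5.48% fell. Their median was 0.27, turning to -0.030 when scaled to the median gene. The highest of them was Ccdc115 (6.51 and 9.93 RPKM, 0.60) and the lowest Dmxl2 (3.10 and 2.58 RPKM, -0.26), with Tm9sf1, the most abundant, at 16.4 and 19.3 RPKM (0.23).

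Members abundant in the oil library tended to lie higher by log2 fold change, with a Spearman correlation of 0.37 over the 29 members, whereas over all 10689 genes it was -0.42. The values of all points come from the same 2 libraries and the oil level enters both axes, so these are descriptions. Among the 21 members with a value in both libraries and a promoter entry, the 7 with TCACGTG on either strand had a median log2 fold change of 0.80 (range 0.23 to 2.55) and the 14 without it 0.58 (range -0.0042 to 2.06). In each class 2 rose, and 14.3% of all genes rose. Ctsd and Ctsa, whose windows are printed above, rose, and so did Ctss and Ctsc, which hold no match in this window. Ctsb and Atp6v1b2 rose too, but they had no promoter entry and stand in neither class. Atp6v0d1 holds TCACGTGA 4 bases before its start and was at 0.23.

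Other lysosomal genes were read from lists for comparison with the members. Of 40 hydrolases and their activators other than cathepsins, 20 rose and 0 fell, against 14.3% and 5.48% of all genes. Their median log2 fold change was 1.01. With the median gene set to no change, 13 rose and 1 fell, against 8.01% and 9.74% of all genes. Psap, the precursor of the saposins that assist sphingolipid breakdown, was the most abundant at 255.2 and 1099 RPKM (2.11). Lgmn, the asparaginyl endopeptidase that processes several cathepsins, was at 91.6 and 234.1 RPKM (1.35), Acp5, tartrate-resistant acid phosphatase, at 57.7 and 124.6 RPKM (1.11) and Hexa, the alpha subunit of beta-hexosaminidase, at 29.2 and 95.1 RPKM (1.70). The largest rise was that of Pld3, a lysosomal exonuclease (11.9 and 59.3 RPKM, 2.31), and the lowest value that of the hyaluronidase Hyal1 (12.03 and 7.11 RPKM, -0.75). Beside them, 5 of 11 cathepsins and 1 of 14 V-ATPase subunits with a value in both libraries rose, against 14.3% of all genes, and the differences between these shares were not tested.

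Of 24 genes listed as lysosomal membrane proteins other than Lamp, 23 were in the table and 20 had a value in both libraries. The list also holds Npc2, a protein of the lumen, and Cd63, which is counted again below among the genes of scar-associated macrophages. Of the 20, 5 rose, against 14.3% of all genes, with a median of 0.79. Scaled to the median gene 3 rose, against 8.01% of all genes. Scaled to the RPKM sum without the 10 most abundant transcripts 9 did, against 19.3%. Cd63, a tetraspanin of late endosomes, had the largest rise (6.21 and 76.0 RPKM, 3.59), and Laptm5, a lysosomal protein of hematopoietic cells (30.3 and 92.5 RPKM, 1.61), and Npc2, a cholesterol carrier of the lumen (24.5 and 72.7 RPKM, 1.56), rose as well. The others were Ostm1 (1.11) and Slc11a1 (1.08), named after their values were seen to complete the count. Laptm4a (55.6 and 80.7 RPKM, 0.54) and Scarb2, the receptor that carries glucocerebrosidase to the lysosome (58.2 and 76.9 RPKM, 0.40), did not pass the fold, and Mfsd8 was lowest (-0.34).

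Of the 9 genes of hydrolase sorting, 2 rose, Sort1 (2.96 and 8.72 RPKM, 1.53) and Gnptab (1.90 and 4.30 RPKM, 1.14, named after its value was seen), which encodes the enzyme that begins the mannose 6-phosphate tag. Of all genes, 14.3% rose, or 8.01% scaled to the median gene. With the median gene set to no change, Sort1 alone passed. The receptors of that tag, M6pr (41.5 and 61.9 RPKM, 0.58) and Igf2r (6.38 and 12.6 RPKM, 0.97), did not pass the fold. Of the TFEB family and nutrient sensing genes, 4 of 14 with a value in both libraries rose, against 14.3% of all genes. Their median was 0.40, close to the 0.30 of all genes. Tfeb was at 4.73 and 10.8 RPKM (1.17), Mitf at 1.39 and 3.05 RPKM (1.08) and Tfec at 4.99 and 10.3 RPKM (1.04). Rragc (1.02), named after its value was seen, completed the 4, and Tfe3 was at 7.14 and 9.10 RPKM (0.35). The most abundant genes of the list did not pass the fold. Lamtor2, also the lowest, was at 36.5 and 31.9 RPKM (-0.20), Lamtor4 at 36.4 and 31.9 RPKM (-0.19) and Lamtor1 at 24.8 and 36.9 RPKM (0.57). After scaling to the median gene, 0 of the 14 passed the fold.

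Autophagy genes, whose products deliver cell contents to the lysosome, were nearly even. Of 23, all with a value in both libraries, 1 rose, Wipi1 (2.64 and 5.86 RPKM, 1.12), against 14.3% of all genes. The median was 0.075, turning to -0.23 when scaled to the median gene, where 0 rose, against 8.01% of all genes. The cargo receptor Sqstm1 was at 206.2 and 137.8 RPKM (-0.58), Gabarapl1 at 127.8 and 82.8 RPKM (-0.63), Gabarap at 92.3 and 96.0 RPKM (0.057) and Map1lc3b at 53.3 and 61.2 RPKM (0.20).

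The inhibitors of cathepsins and related proteases were divided, with 3 of 7 genes higher and 2 lower by the fold. Of all genes, 14.3% rose and 5.48% fell, or 8.01% and 9.74% scaled to the median gene. Scaled to the median gene, 1 was higher and 4 were lower, and the median went from -0.86 to -1.16. Cst3, cystatin C, was at 155.5 and 368.9 RPKM (1.25), Serpinb6a, a serpin that inhibits cathepsin G, at 23.5 and 76.7 RPKM (1.70) and Cstb, cystatin B, named after its value was seen, at 27.5 and 63.3 RPKM (1.20). The others with a value in both libraries lay below 0. Serpina3n was at 393.5 and 91.0 RPKM (-2.11), Kng1 at 514.0 and 233.8 RPKM (-1.14) and Ahsg, the most abundant, at 2646 and 1462 RPKM (-0.86).

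**Figure D5:**
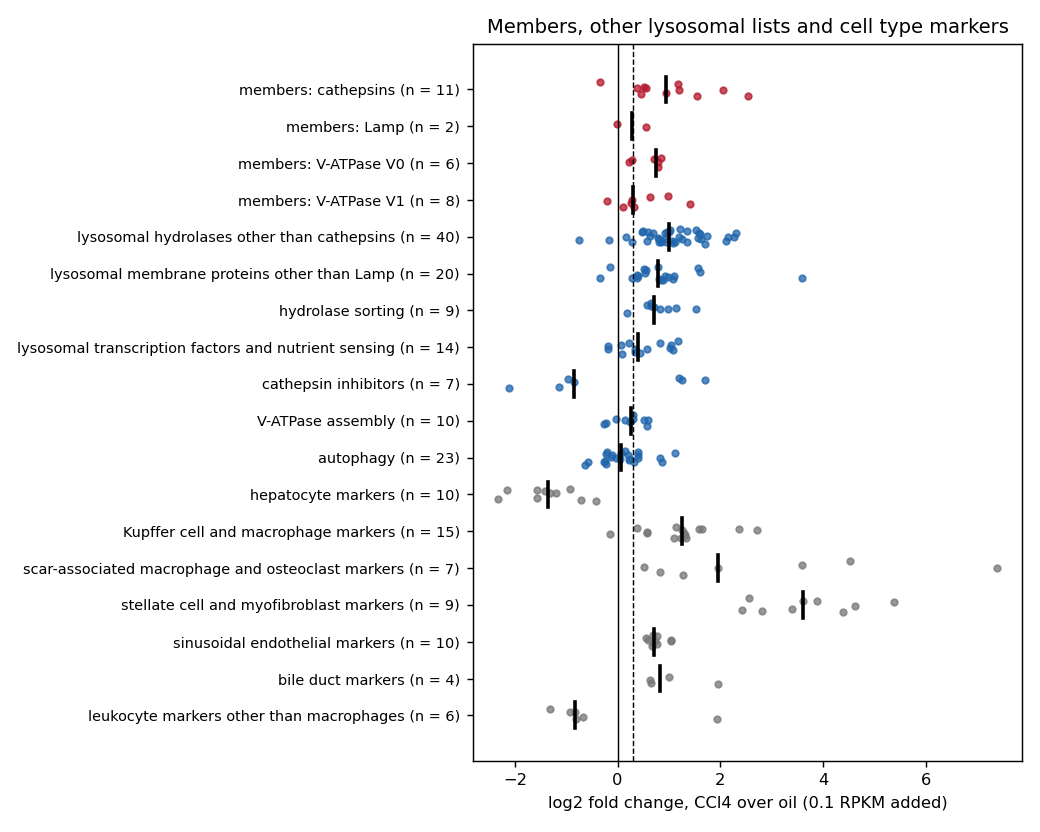
Log2 fold change (CCl4 over oil, 0.1 RPKM added) of each gene listed in both libraries, for the members by role (red), other lysosomal lists (blue) and cell type markers (gray), with the list median as a bar and the median of all genes (0.30) dashed. The cathepsin median is 0.95 and the V1 median 0.31, macrophage markers have a median of 1.25 and hepatocyte markers of -1.36.

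Markers of several cell types differed between the libraries beside the cathepsins. Of all genes, 14.3% rose and 5.48% fell, or 8.01% and 9.74% scaled to the median gene. The label of the cells was checked against their markers, and all 10 hepatocyte genes were listed in both libraries, with Alb at 8656 and 6476 RPKM, yet 7 of the 10 fell and their summed level was 28270 and 14470 RPKM. Kupffer cell and macrophage markers were also present in both libraries for 15 of 15 genes, 11 of which rose (6 when scaled to the median gene), and their summed level was 1887 and 5020 RPKM, a log2 ratio of 1.41 beside 1.63 for the cathepsins. Lyz2, the lysozyme of macrophages, was at 321.0 and 1645 RPKM (2.36), Marco at 42.3 and 277.9 RPKM (2.71), and Clec4f, a defining Kupffer cell lectin, at 282.6 and 254.5 RPKM (-0.15). The part of these cells in the cathepsin values was not tested. The paper describes a purity check of isolated hepatocytes and nonhepatocytes, by qRT-PCR of hepatocyte, stellate cell and Kupffer cell genes.

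Beside Ctsk and Atp6v0d2, both known from osteoclasts and macrophages, stood 11 genes of scar-associated macrophages and osteoclasts. Their summed level was 150.1 RPKM with oil and 749.9 RPKM with CCl4. Of the 7 with a value in both libraries 5 rose, or 4 when scaled to the median gene, against 14.3% and 8.01% of all genes. Gpnmb was at 1.19 and 217.3 RPKM (7.40) and Trem2 at 4.58 and 107.2 RPKM (4.52), whereas Fabp5, the most abundant with oil, was at 82.2 and 146.4 RPKM (0.83) and Mmp9, the lowest by log2 fold change, at 2.49 and 3.59 RPKM (0.51). Mmp12, like Ctsk, was listed at 0 in the oil library and at 15.7 RPKM in the CCl4 library. The osteoclast genes Ocstamp, Dcstamp and Calcr were listed at 0 in both libraries. Stellate cell and myofibroblast markers summed to 76.3 and 934.0 RPKM, with 9 of the 9 genes having a value in both libraries rising, among them Col1a1 (3.02 and 130.5 RPKM, 5.39), and Pdgfrb listed at 0 in the oil library and at 16.8 RPKM in the CCl4 library. Sinusoidal endothelial markers summed to 602.1 and 1019 RPKM (log2 ratio 0.76), with Clec4g, the most abundant, at 238.0 and 379.8 RPKM (0.67), Lyve1 highest by log2 fold change (1.05) and Tek lowest (0.56). Of the 4 bile duct markers with a value in both libraries 2 rose (1 when scaled to the median gene). They were Spp1, also among the 11 genes above (37.4 and 145.1 RPKM, 1.95), and Krt19 (8.86 and 17.8 RPKM, 1.002). The part of these cells in the values of Ctsk and Atp6v0d2 was not tested.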

How the data were processed

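Total RNA of isolated hepatocytes was sequenced in 2 libraries, 1 per group (oil and CCl4). The submitters' processing notes name CASAVA 1.4, TopHat2 and mm10. The counting program, annotation and strand setting are not given in the sources used here. The authors deposited RPKM per transcript for mRNAs, 37072 annotated lncRNA entries and 1443 new lncRNAs, with whole-number read counts and lengths deposited for the new lncRNAs only. The deposited tables also hold the authors' own comparison (log2 fold change, p-value and q-value), which was not used. The study's methods give no test for RNA-seq. Neither RPKM column holds a value between 0 and 1 (lowest values 1.00035 and 1.00045), and a gene listed at 0 got no fold, since levels below 1 were not restored from the deposited log2 column. 0 columns of per-sample values were unmapped.

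From these files, RefSeq identifiers were matched to symbols (27049 of 27457 mRNA transcripts), 1 transcript per gene was kept by the highest mean RPKM, and log2 fold changes were computed with 0.1 RPKM added (Python 3.11.15, pandas 2.3.3, numpy 2.4.6, scipy 1.17.1). A gene was called at an absolute value of at least 1. The library totals were those that made reads whole in 215 of 225 short genes (oil) and 228 of 240 (CCl4), within 0.01 reads beyond rounding. Reads of each member are the smallest whole numbers that fit both RPKM values. On 1374 new lncRNAs with deposited counts, reads recovered in this way were equal in 79.7% and never above. Coordinates, promoters and symbols are RefSeq's for GRCm38.p6, the assembly of mm10. The calling step was tested on simulated data with counting error only. Since no spread between mice was simulated, this cannot show how many calls would hold in other mice. Every member is named. From each of 15 lists (213 of 215 entries matched) names were drawn from the 4 most abundant or defining genes and the highest and lowest, and not all of these are printed. The members and lists were chosen with earlier results of these data known. Alternatives were other pseudocounts, other scalings, a mean of at least 5 RPKM, RPKM summed over transcripts and a lower fold.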

Additional observations from a re-analysis of the deposited data

Results flagged for a closer look

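The noncoding table, which the comparisons above did not use, lists Atp6v0c-ps2 (NR_037854), a processed copy of Atp6v0c, at 69.4 RPKM with oil and 125.2 RPKM with CCl4, a log2 fold change of 0.85. It stands out because it is a signal outside the mRNA table and higher in the CCl4 library. Atp6v0c itself was at 70.5 and 127.4 RPKM (0.85), and reads of such near-identical copies can be shared or split, so its level is uncertain. How the reads were assigned was not tested. Cts8-ps, a copy of a placental cathepsin, was listed at 0 in both libraries.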

How the results depend on the processing

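Scaling and the size of the fold moved the counts. With the median gene set to no change (a shift of -0.30 on the log2 scale), 856 of all genes rose and 1041 fell (45.1% of the calls higher, against 72.3% as deposited, where 1527 rose and 586 fell), the member median was 0.33, 4 members rose, and the list medians of V-ATPase assembly (-0.030) and autophagy (-0.23) changed sign. The 8 members then below 0 were Atp6v0a2, Atp6v0d1, Atp6v1d, Atp6v1e1, Atp6v1g1, Atp6v1h, Ctsw and Lamp2. With the sum without the 10 most abundant transcripts (a shift of 0.16), 2060 rose and 429 fell, 82.8% of the calls higher, and 9 members rose. With a mean of at least 5 RPKM, 951 of all genes rose, 13.9% of the 6843 then tested, and Ctsw was left out. With a 1.5-fold limit in place of 2-fold, 15 members, 3367 of all genes higher (31.5%) and 1288 lower passed. With 1 or 0.5 RPKM added, or RPKM summed over transcripts, 6 members rose and 0 fell, beside 1077, 1300 and 1549 of all genes that rose (10.1%, 12.2% and 14.5%). For the 4 members listed in 1 library only, taking the listed 0 as 0 with 0.1 RPKM added puts all 4 past the fold by construction, since no listed value is under 1 RPKM, and shows no stability. No paired analysis was possible because each group has 1 library, and none could be left out. Counting error alone leaves Ctsw and Lamp2 not told apart from 0, and 6 of the 29 members not told apart from the shift of the median gene. Levels listed at 0 were not restored from the deposited log2 column, which belongs to the authors' comparison. With 1 library per group, differences between mice and in cell make-up cannot be told apart from that of treatment.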
